A study of Homo sapiens with 4 samples.

Results

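Transcripts of ribosome assembly were compared in SUM159, a human cell line from triple-negative breast cancer (TNBC), cultured untreated or with palbociclib, indisulam or both drugs. The 40 genes are MYC and 39 genes of ribosome biogenesis and RNA polymerase I, chosen by name. They encode RNA polymerase I and its factors, the particles that modify ribosomal RNA, and proteins that build the large and the small ribosomal subunit. All 40 were found among the 60279 genes of the count tables, and all 40 were among the 14269 genes tested, which had a mean of at least 1 CPM (reads of the gene per 1000000 reads in genes). The question was whether genes that assemble ribosomes differed between treatments as the genes of the ribosomal proteins did, which were lower in the combination.

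Palbociclib blocks CDK4 and CDK6, kinases of the cell cycle, and indisulam brings the splicing factor RBM39 to a ubiquitin ligase for degradation. Each of the 4 conditions had 1 library, so no difference below has a replicate check and no p-value was computed. The sample labels give 0.5 µM palbociclib and 2 µM indisulam for 10 days, whereas the text on the series gives 2 µM and 3 µM for 16 h in technical duplicates. Which of these was sequenced is not settled by the files, nor whether duplicates were pooled. All conditions were the same line in a medium with serum, insulin and hydrocortisone.

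The libraries held 12555908 to 16712174 reads in genes, of which mitochondrially encoded genes took 4.90% to 7.33%. Of the receptor genes that should be low in TNBC, PGR had at most 3 reads and ESR1 at most 16 reads in a library, while ERBB2 was at 110 to 143 CPM. VIM, the gene of the mesenchymal filament vimentin, was at 2642 to 4598 CPM. MKI67, a gene of cycling cells, had 126 CPM untreated, 44.5 with palbociclib, 246 with indisulam and 129 with both drugs, and its part in the differences below was not tested. CPM gives a gene's share of a library, so fewer transcripts in each cell and fewer cells with the transcript cannot be told apart, nor can a change in the total RNA of a cell be seen.

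Ribosomes are assembled in the nucleolus. RNA polymerase I copies the ribosomal RNA genes into a long precursor, small RNA-guided particles methylate it or convert its uridines to pseudouridines, and assembly factors fold and trim it while ribosomal proteins bind. MYC is a transcription factor known to raise the expression of many of these genes in growing cells and to bind the letters CACGTG, the E-box. Transcripts of most ribosomal proteins begin with a run of pyrimidines, the TOP tract, through which growth signals control their translation.

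Genes of ribosome assembly and genes of ribosomal proteins lay on opposite sides of untreated in the combination. The median log2 ratio of combination to untreated was 0.40 over the 40 genes and -0.36 over the 84 tested genes of cytosolic ribosomal proteins, beside 0.05 over all tested genes. The medians of these lists differed by 0.75. Of the 40 genes, 25 were higher and 8 lower with a 95% interval from counting error that excluded 0, beside 39.2% and 34.1% of all tested genes. Of the 84 ribosomal protein genes, 1 was higher and 76 were lower by the same rule. With palbociclib against untreated the medians were 0.21 for the 40 genes and -0.04 for the ribosomal protein genes, and with indisulam they were 0.34 and 0.05, beside -0.02 and 0.06 over all tested genes. The gap between the lists against untreated was widest in the combination. Against the single drugs the 40 genes stayed near all tested genes. Their median in the combination was 0.05 against palbociclib and 0.04 against indisulam, beside 0.07 and -0.01 over all tested genes. The medians of the ribosomal protein genes were -0.29 and -0.38.

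**Figure D1:**
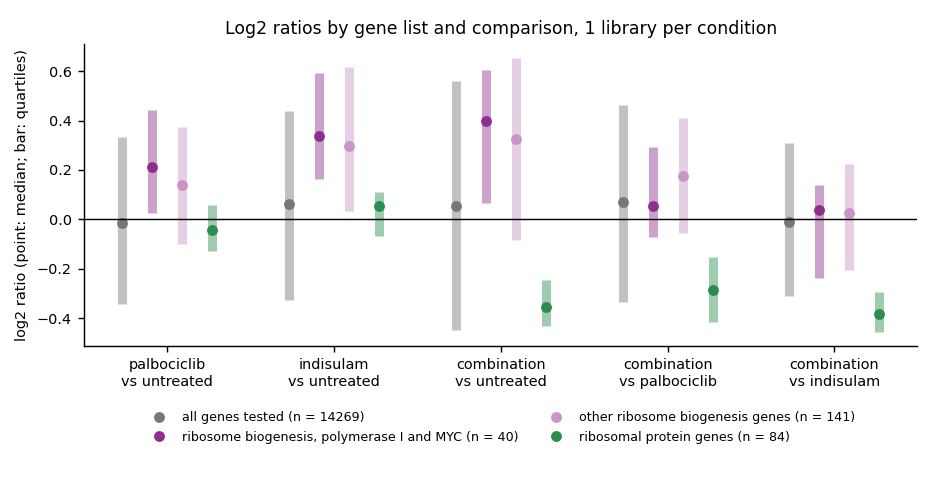
Median (points) and quartiles (bars) of the log2 ratios over all tested genes, the 40 genes, 141 other ribosome biogenesis genes and 84 ribosomal protein genes, for 5 comparisons between single libraries. In the combination against untreated, the 40 genes have a median of 0.40 and the ribosomal protein genes one of -0.36.

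In summed level the 40 genes were near untreated with palbociclib and with both drugs, and higher with indisulam. They made up 4194 CPM untreated, 4154 with palbociclib, 4755 with indisulam and 4296 with both drugs, which is 99.0%, 113% and 102% of untreated. The ribosomal protein genes made up 6.71% of reads untreated, 6.53% with palbociclib, 6.62% with indisulam and 5.15% with both drugs, so that the combination was at 76.8% of untreated. The sum over the 40 genes is dominated by NPM1, NCL and MYC, the 3 with the most reads. Without them the other 37 genes were at 110% of untreated with palbociclib, 125% with indisulam and 118% with both drugs.

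The differences of single genes were small. Genes were called at a ratio of 2-fold or more with a counting interval that excluded a ratio of 1. In the combination against untreated, RRS1 was called higher and FBL lower, which is 2 of 40 genes, beside 23.5% of all tested genes. With palbociclib against untreated the same pair was called, beside 10.7%. With indisulam against untreated none of the 40 was called, beside 15.1%. The combination against palbociclib had 0 called genes, beside 16.9%, and the combination against indisulam had FBL alone, beside 8.19%. Low-count genes are part of this background. Among the 10019 genes at a mean of 10 CPM or more, 5.81% were called with palbociclib against untreated and 3.55% in the combination against indisulam, which is near the 5.13% and 2.56% of the 39 of the 40 genes at that level, and 16.1% were called in the combination against untreated, beside 5.13% of the 39.

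At 1.5-fold, 11 of the 40 genes were higher and 2 lower in the combination against untreated, beside 23.1% and 19.4% of all tested genes. With indisulam 10 were higher and 0 lower, beside 17.2% and 14.2%, and with palbociclib 6 were higher and 1 lower, beside 12.6% and 12.2%. The combination had 2 higher (18.4%) and 1 lower (14.5%) against palbociclib, with the background in parentheses. Against indisulam 4 of the 40 were called at 1.5-fold, RRS1 higher and POLR1D, FBL and NOB1 lower, beside 22.2%. Against untreated, higher genes were near or somewhat above the background share and lower genes were below it. Among the genes at a mean of 10 CPM or more, 19.5% of genes were higher and 17.7% lower in the combination against untreated at 1.5-fold.

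The layout of the drugs gave a further yardstick. Adding the log2 ratios of palbociclib and indisulam to untreated gives a value that the combination can be set against, and the difference is the departure from additivity. How far it scattered over genes, as a median absolute deviation rescaled to a single ratio, set the spread of a single log2 ratio between libraries at no more than 0.28 for genes at 100 CPM or more, 0.26 from 20 to 100 CPM, 0.37 from 5 to 20 CPM and 0.62 below. In the combination against untreated, 25 of the 40 genes were higher by more than this spread, beside 34.6% of all tested genes, and 8 were lower, beside 29.4%. With palbociclib 17 were higher, beside 22.7%, and POLR1D, FBL and NPM1 were lower, beside 24.4%. Being past 1 such spread is a mild criterion, as the shares over all genes show.

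**Figure D2:**
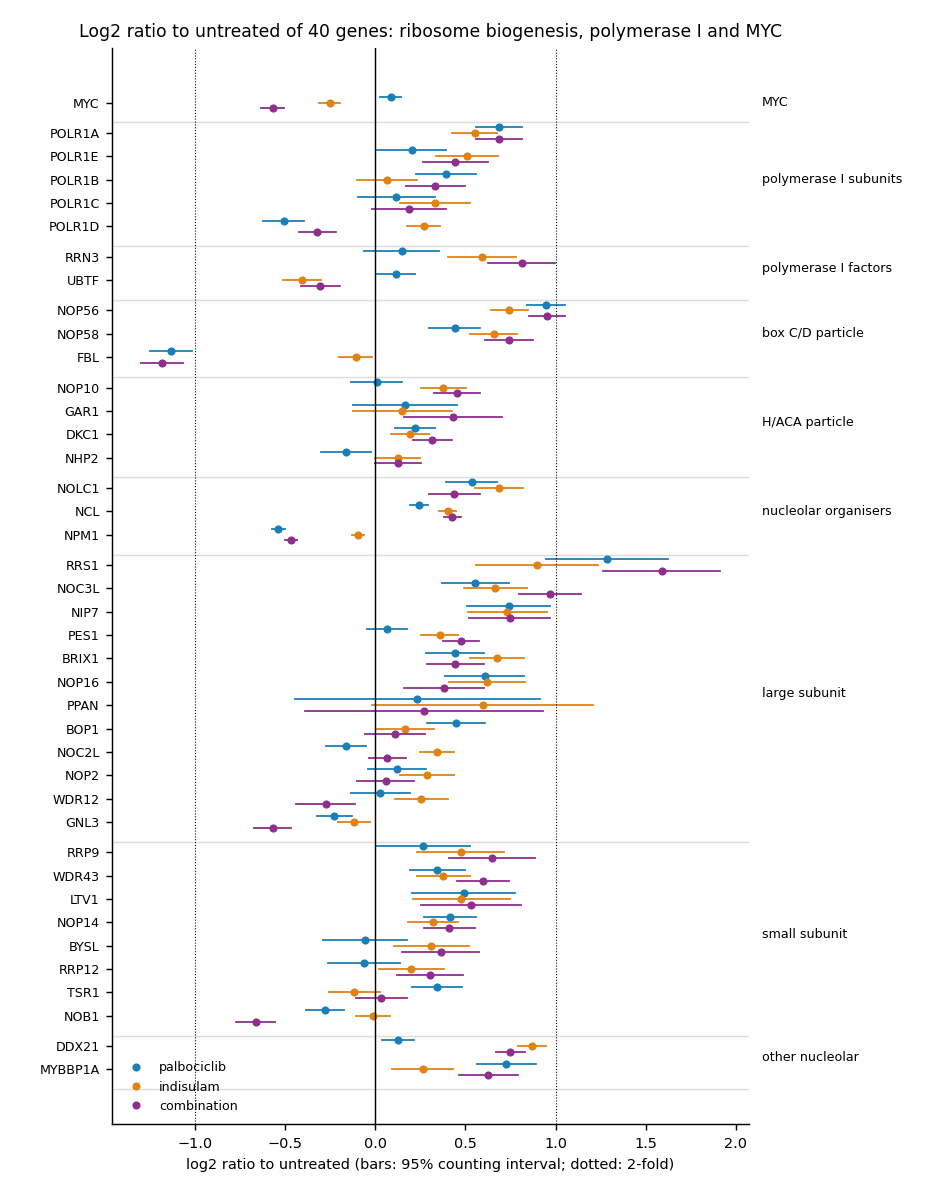
Log2 ratio to untreated (horizontal axis) of each of the 40 genes, grouped by role, in the palbociclib (blue), indisulam (orange) and combination (purple) libraries. Lines are 95% intervals from counting error and the dotted lines mark 2-fold. Most points lie to the right of 0, and the combination values run from -1.18 for FBL to 1.59 for RRS1.

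Sequences at the start sites are shown here for the E-box, which MYC binds, and for the pyrimidine tract of most ribosomal protein transcripts. RefSeq windows of 300 bases on GRCh38.p14, from 250 before to 50 after a transcript start, were matched by symbol for 33 of the 40 genes, which had 42 windows. The genes without a window were MYC, POLR1E, NOP58, NOLC1, BOP1, RRS1 and RRP12. RRS1, the highest of the 40 in the combination against untreated, is thus not covered. The letters CACGTG, which read the same on both strands, were in 14 of the 42 windows (33.3%), each of a different gene. They were in 7.26% of all 35116 windows of the table, in 8.97% of the windows of tested genes and in 4.76% of the windows of ribosomal protein genes. Among other ribosome biogenesis genes they were in 37 of 138 windows (26.8%), so the high share was not particular to the 40 genes. The 14 genes were BYSL, DDX21, FBL, GAR1, GNL3, LTV1, MYBBP1A, NOC3L, NOP10, NOP14, NOP2, PES1, RRP9 and WDR43. Of these, 6 are shown as examples, 4 with high and 2 with low log2 ratios of combination to untreated. DDX21, at 0.75, was not among the 6. The 30 bases around the letters are given 5′ to 3′ on the strand of the gene, with CACGTG in capitals. They lie at chr10:94362903-94362932 (minus strand) for NOC3L, chr3:51941892-51941921 (minus) for RRP9, chr17:4555340-4555369 (minus) for MYBBP1A, chr2:28894658-28894687 (plus) for WDR43, chr19:39846356-39846385 (minus) for FBL and chr3:52686026-52686055 (plus) for GNL3.
NOC3L: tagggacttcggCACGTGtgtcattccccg
RRP9: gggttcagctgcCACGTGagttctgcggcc
MYBBP1A: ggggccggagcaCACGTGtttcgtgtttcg
WDR43: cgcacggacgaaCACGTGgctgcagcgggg
FBL: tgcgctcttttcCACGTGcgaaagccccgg
GNL3: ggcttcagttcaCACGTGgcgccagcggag

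Genes with the letters lay at both ends of the range. Over the 14 genes with CACGTG and the 19 matched genes without it, the median log2 ratio to untreated was 0.15 and 0.22 with palbociclib, 0.34 and 0.33 with indisulam, and 0.46 and 0.27 in the combination. Among tested genes outside the lists the combination was at 0.10 over 1262 genes with the letters and 0.04 over 9281 without. A match is a description of the window and does not show that a factor binds there.

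A pyrimidine start, here a C at the first transcribed base followed by at least 4 pyrimidines, was found in 4 of the 42 windows (9.52%), those of DDX21, FBL, NOB1 and NPM1. It was in 4.07% of all windows, in 5.19% of the windows of tested genes and in 57.1% of the windows of ribosomal protein genes. Among other ribosome biogenesis genes it was in 7.25% of the windows. The 4 starts are given as 10 bases before and 20 bases from the start, 5′ to 3′, with the tract in capitals, at chr10:68956160-68956189 (plus strand) for DDX21, chr19:39846360-39846389 (minus) for FBL, chr16:69754907-69754936 (minus) for NOB1 and chr5:171387839-171387868 (plus) for NPM1. In FBL the last base of the tract is the first of CACGTG. DDX21 and NPM1 each had a further window without a pyrimidine start, and which start was used was not tested.
DDX21: ggggaactacCTCTTCCTCTCCacgcggtt
FBL: cgcctgcgctCTTTTCCacgtgcgaaagcc
NOB1: gcgcgctcccCTCTCacgcagccaacatgg
NPM1: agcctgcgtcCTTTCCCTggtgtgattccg

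FBL, NOB1 and NPM1 were among the 5 lowest of the 40 genes in the combination against untreated, whereas DDX21, with the longest tract of 12 bases, was among the 5 highest. The median log2 ratio was -0.56 over these 4 genes and 0.41 over the 29 other matched genes. Among tested genes outside the lists it was -0.15 over 738 genes with a pyrimidine start and 0.07 over 9805 without.

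MYC was lower in both libraries with indisulam. MYC (GRCh38 chromosome 8, 127735434 to 127742951, ENSG00000136997) had 355 CPM untreated, 377 with palbociclib, 298 with indisulam and 239 with both drugs. Relative to untreated, palbociclib was at a log2 ratio of 0.09 (0.03 to 0.15), indisulam at -0.25 (-0.31 to -0.19) and the combination at -0.57 (-0.63 to -0.50). The single drug values were within the spread of 0.28. The combination against palbociclib was at -0.65 (-0.72 to -0.59), past 1.5-fold. MYC was lowest in the combination, where the median log2 ratio of the 40 genes to untreated was 0.40, beside 0.34 with indisulam. Over the 14 genes without exonic overlap these medians were 0.45 and 0.49, so which library was highest depended on the genes included.

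Genes of the RNA polymerase I subunits differed among themselves. POLR1A, which encodes the largest subunit, had 61.8 CPM untreated, 99.6 with palbociclib, 90.7 with indisulam and 99.4 with both drugs, so that every treated library was higher. Its log2 ratio of combination to untreated was 0.69 (0.56 to 0.81). POLR1B, which encodes the second largest subunit, was at 0.33 (0.17 to 0.50), POLR1E at 0.44 (0.26 to 0.62) and POLR1C at 0.19 (-0.02 to 0.39). POLR1C and POLR1D encode a pair of subunits shared with RNA polymerase III. POLR1D had 124 CPM untreated, 86.9 with palbociclib, 149 with indisulam and 99.0 with both drugs, and both libraries with palbociclib were below both without it. Palbociclib against untreated gave a log2 ratio of -0.51 (-0.62 to -0.40), and the combination against indisulam gave -0.59 (-0.68 to -0.49).

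Factors that start RNA polymerase I transcription lay on opposite sides. RRN3 (chromosome 16, 15060033 to 15094311), which carries the polymerase to its promoter, had 27.4 CPM untreated, 30.3 with palbociclib, 41.4 with indisulam and 48.2 with both drugs. The libraries with indisulam were the high ones, and the log2 ratio of combination to untreated was 0.81 (0.63 to 1.00). UBTF encodes UBF, which binds along the ribosomal RNA genes and keeps them open. It had 112 CPM untreated, 122 with palbociclib, 84.7 with indisulam and 90.9 with both drugs, and the libraries with indisulam were the low ones. The log2 ratio of UBTF minus that of RRN3, in which the scaling of the libraries cancels, was -1.12 (-1.33 to -0.90) in the combination against untreated and -0.999 (-1.21 to -0.78) with indisulam. RRN3 has near-identical pseudogenes, and reads that matched more than 1 place were not counted.

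The box C/D particle, which methylates ribosomal RNA, held genes that lay far apart. FBL (chromosome 19, 39834458 to 39846379, ENSG00000105202) encodes fibrillarin, the methyltransferase of the particle. It had 143 CPM untreated, 65.2 with palbociclib, 133 with indisulam and 63.0 with both drugs, from 1796, 828, 2218 and 905 reads. Palbociclib was at 45.6% of untreated and the combination at 47.5% of indisulam. The log2 ratio of palbociclib was -1.13 (-1.25 to -1.01) without indisulam and -1.07 (-1.19 to -0.96) beside it, and the combination against untreated stood at -1.18 (-1.30 to -1.07).

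NOP56 and NOP58, which encode the scaffold proteins that hold fibrillarin in the particle, lay on the other side. NOP56 (chromosome 20, 2652593 to 2658393) had 90.6 CPM untreated, 175 with palbociclib, 152 with indisulam and 175 with both. Against untreated the combination was at 0.95 (0.85 to 1.05) on the log2 scale. NOP58 had 55.4 CPM untreated, 75.2 with palbociclib, 87.4 with indisulam and 92.6 with both. The combination was at 0.74 (0.61 to 0.87) on the log2 scale. All treated libraries were thus above untreated for both scaffold genes. The log2 ratio of FBL minus that of NOP56 was -2.08 (-2.24 to -1.92) under palbociclib, -0.85 (-0.99 to -0.72) under indisulam and -2.13 (-2.29 to -1.98) under both. Small nucleolar RNAs lie within NOP56, and genes on its strand cover at most 9.54% of its exonic bases.

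Genes of the H/ACA particle, which makes pseudouridine, lay closer together. With palbociclib DKC1 was at 0.22 (0.11 to 0.33) and NHP2 at -0.16 (-0.30 to -0.02), on opposite sides of 0. In the combination against untreated, DKC1, which encodes the pseudouridine synthase dyskerin, was at 0.32 (0.21 to 0.42), and NOP10 and GAR1 were at 0.45 (0.32 to 0.58) and 0.43 (0.16 to 0.70). NHP2 was at 0.13, with an interval from just below 0 to 0.26. The levels of DKC1 ran from 94.0 CPM untreated to 117 CPM in the combination.

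The abundant proteins that organise the nucleolus also diverged. NPM1 (chromosome 5, 171387116 to 171411810, ENSG00000181163) encodes nucleophosmin, a chaperone that forms the outer phase of the nucleolus. It had 1189.6 CPM untreated, 820.2 with palbociclib, 1113 with indisulam and 860.8 with both drugs, and the libraries with palbociclib were the low ones. Without indisulam the log2 ratio of palbociclib was -0.54 (-0.57 to -0.50), and beside indisulam it was -0.37 (-0.40 to -0.34). NPM1 has many near-identical pseudogenes, so its level is uncertain where reads matched several places. NCL encodes nucleolin, which binds ribosomal RNA and its genes, and had 476 CPM untreated, 563 with palbociclib, 629 with indisulam and 641 with both drugs. Every treated library was higher, with a log2 ratio of combination to untreated of 0.43 (0.38 to 0.48). NOLC1, which encodes a chaperone of the guide particles, was at 0.53 with palbociclib, 0.69 with indisulam and 0.44 (0.30 to 0.58) in the combination.

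Factors of the large subunit covered the whole range. RRS1 (chromosome 8, 66429014 to 66430733, ENSG00000179041), which helps to bring the small ribosomal RNA of the large subunit into the particle, had 7.81 CPM untreated, 19.2 with palbociclib, 14.6 with indisulam and 23.6 with both drugs. These values rest on 98, 243, 244 and 339 reads. Every treated library was above untreated, and the log2 ratio was 1.29 (0.95 to 1.62) under palbociclib, 0.90 (0.56 to 1.23) under indisulam and 1.59 (1.26 to 1.91) under both, or 3.01-fold. RRS1 is the only 1 of the 40 genes with a single exon, beside a median of 13.5 exons, and a gene on the same strand overlaps up to 11.3% of it.

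NOC3L (chromosome 10, 94333226 to 94362959), related to a yeast factor that moves precursors out of the nucleolus, had 31.1 CPM untreated, 45.7 with palbociclib, 49.4 with indisulam and 60.9 with both drugs. Its ratio of combination to untreated was 0.97 (0.80 to 1.14) on the log2 scale, and the combination was above both single drugs. NOC2L, also among the large subunit factors, was at 0.07 (-0.04 to 0.17). GNL3 (chromosome 3, 52681156 to 52694497) encodes nucleostemin, a GTP-binding nucleolar protein. It had 142 CPM untreated, 121 with palbociclib, 131 with indisulam and 95.6 with both drugs. All treated libraries were lower, and the log2 ratio in the combination was -0.57 (-0.67 to -0.47).

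PES1, BOP1 and WDR12 encode the subunits of the PeBoW complex, which is needed to process the precursor of the large subunit. WDR12 had 47.7 CPM untreated, 48.7 with palbociclib, 57.0 with indisulam and 39.4 with both drugs, whereas PES1 had 101, 106, 129 and 140.0 CPM in the same order. PES1 was highest and WDR12 lowest in the combination. The log2 ratio of WDR12 minus that of PES1 was -0.04 (-0.23 to 0.16) under palbociclib, -0.10 (-0.28 to 0.08) under indisulam and -0.75 (-0.94 to -0.56) under both. BOP1 minus PES1 was 0.38 (0.18 to 0.58) with palbociclib, -0.19 with indisulam and -0.36 (-0.56 to -0.17) in the combination.

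The other large subunit factors were mostly higher. NIP7, which acts in processing of the precursor, was at 0.74 with palbociclib, 0.73 with indisulam and 0.75 (0.52 to 0.97) in the combination. BRIX1 was at 0.44 (0.29 to 0.60) and NOP16 at 0.38 (0.16 to 0.60) in the combination, both below their values of 0.68 and 0.62 with indisulam. NOP2, a ribosomal RNA methyltransferase, was at 0.06 (-0.10 to 0.22), and a gene on its strand overlaps up to 54.4% of its exonic bases. PPAN had 31, 37, 63 and 43 reads and shares exons with a readthrough gene, so that no difference was detectable at this depth.

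Among small subunit factors NOB1 stood apart. NOB1 (chromosome 16, 69741871 to 69754926) encodes the nuclease that makes the last cut at the end of the small subunit RNA. It had 125 CPM untreated, 103 with palbociclib, 124 with indisulam and 79.0 with both drugs, which was the lowest library. Its log2 ratio in the combination was -0.66 (-0.77 to -0.55) against untreated and -0.65 (-0.76 to -0.55) against indisulam. An antisense gene overlaps up to 20.4% of its exonic bases.

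The remaining 7 small subunit genes lay between 0.03 for TSR1 and 0.65 for RRP9 in the combination against untreated. WDR43 was at 0.60 (0.45 to 0.74), and LTV1, which leaves the particle late in maturation, was at 0.53 (0.25 to 0.81). NOP14 was at 0.41, BYSL at 0.36 and RRP12 at 0.30. WDR43, RRP9, LTV1 and NOP14 were above untreated with each single drug as well.

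DDX21 and MYBBP1A followed different drugs. DDX21 (chromosome 10, 68956135 to 68985068), an RNA helicase that couples RNA polymerase I and II transcription, had 148 CPM untreated, 162 with palbociclib, 271 with indisulam and 249 with both drugs. The libraries with indisulam were the high ones, with a log2 ratio of indisulam of 0.87 (0.79 to 0.95) alone and 0.62 (0.54 to 0.70) beside palbociclib. MYBBP1A, a nucleolar protein that represses transcription factors, had 37.0 CPM untreated, 61.4 with palbociclib, 44.5 with indisulam and 57.2 with both drugs, and the libraries with palbociclib were the high ones.

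**Figure D3:**
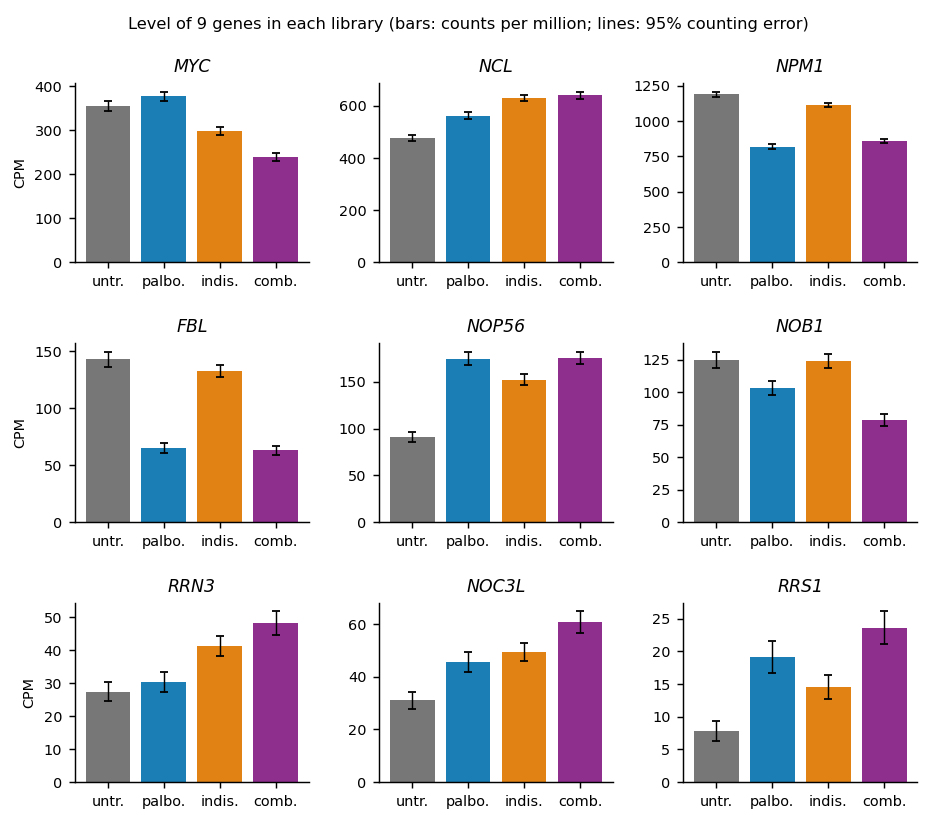
Bars give CPM in each of the 4 libraries for 9 genes (MYC, NCL, NPM1, FBL, NOP56, NOB1, RRN3, NOC3L and RRS1), with 95% counting intervals. FBL stands at 143 and 133 CPM without palbociclib and at 65.2 and 63.0 CPM with it, while RRS1 goes from 7.81 CPM untreated to 23.6 CPM in the combination.

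Each drug was measured against 2 separate references that share no library, with and without the other drug. Palbociclib against untreated and the combination against indisulam both put 6 of the 40 genes lower with intervals that excluded 0, beside 17.8% of all tested genes. These were POLR1D, FBL, NPM1, GNL3, NOC2L and NOB1. Both put 9 higher, beside 15.9%, namely POLR1A, POLR1B, NOP56, DKC1, RRS1, NOC3L, WDR43, TSR1 and MYBBP1A. Past the spread of a single ratio in both were POLR1D, FBL and NPM1 (lower) and POLR1B, RRS1, NOC3L and MYBBP1A (higher). The share of all tested genes past it in both was not computed. In palbociclib against untreated alone, 22.7% of all tested genes were past it higher and 24.4% lower. In the combination against indisulam alone it was 22.6% in each direction. MKI67 was lower with palbociclib in both as well, by log2 ratios of -1.496 and -0.93.

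For indisulam, both references put 15 of the 40 genes higher, beside 25.2% of all tested genes, and 3 lower, beside 18.4%. The lower genes were MYC, UBTF and GNL3. The higher ones included RRN3, NOP58, NCL, NOP10, PES1, RRS1, NOC3L, WDR43, RRP9, BYSL and DDX21. MKI67 was higher with indisulam in both, by 0.97 and 1.54. GNL3 was thus lower with each drug by both references, although neither single drug against untreated was past the spread of 0.28. The ratios of the 2 drugs rest on the same 4 libraries.

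The departure from additivity lay below 0 in most of the genes. It had a median of -0.25 over the 40 genes, beside 0.01 over all tested genes and -0.30 over the ribosomal protein genes. Over the 14 genes without exonic overlap the median was -0.11. The departure of single genes scattered by 0.37 at 20 to 100 CPM and by 0.40 at 100 CPM or more, over all genes. That is not the scatter of a median over 40 genes, which was not measured. The departure was below 0 in 31 of the 40, beside 49.5% of all tested genes, with an interval below 0 in 21, beside 22.7%, and above 0 in 1, beside 23.1%. The lowest value was -0.84, for NOP16, which was at 0.61 and 0.62 with the single drugs and at 0.38 in the combination. All 4 libraries enter every departure, so the departures of different genes share the errors of these libraries.

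**Figure D4:**
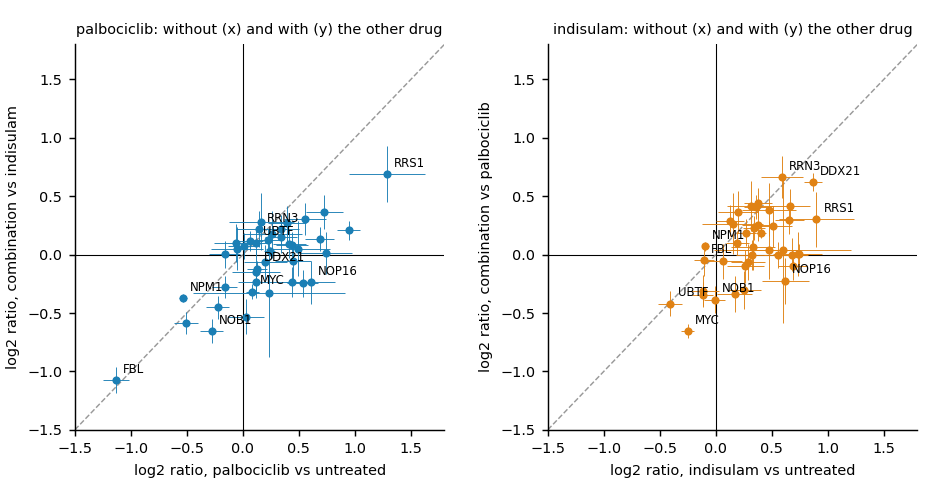
Log2 ratio of each drug for the 40 genes, without the other drug (horizontal axis) and with it (vertical axis), for palbociclib and indisulam. Lines are 95% counting intervals and the dashed diagonal marks equal values. The axes of a panel share no library. FBL lies at -1.13 and -1.07 in the palbociclib panel.

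The other genes of ribosome biogenesis also had medians above 0 against untreated. Of 143 further genes found, 141 passed the filter, and their median log2 ratio was 0.14 with palbociclib, 0.30 with indisulam and 0.33 with both drugs against untreated. In the combination 12 were higher and 2 lower at 2-fold, beside 12.9% and 10.5% of all tested genes, and 44 were higher and 7 lower at 1.5-fold, beside 23.1% and 19.4%. The 8 other polymerase I genes among them had medians of -0.17 with palbociclib, 0.38 with indisulam and -0.08 with both drugs. The 5 highest at a mean of 5 CPM or more were MPHOSPH6, an exosome cofactor, at 1.77 (1.42 to 2.12), POLR1G at 1.75 (1.44 to 2.07), RRP15 at 1.68 (1.38 to 1.99), UTP15 at 1.65 (1.43 to 1.88) and PNO1 at 1.63 (1.37 to 1.89). PNO1, the partner of NOB1 in the small subunit precursor, went from 11.9 CPM untreated to 37.0 CPM in the combination, while NOB1 went from 125 to 79.0 CPM. POLR1G, a polymerase I subunit gene, shares up to 49.8% of its exonic bases with ERCC1 on the other strand.

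The 5 lowest were POLR1H at -1.18 (-1.42 to -0.93), DIMT1 at -1.002 (-1.18 to -0.82), WDR55 at -0.95 (-1.13 to -0.77), RRP8 at -0.90 (-1.17 to -0.63) and WDR18 at -0.82 (-1.07 to -0.57). POLR1H, which encodes a small polymerase I subunit, had 32.0 CPM untreated, 16.8 with palbociclib, 26.7 with indisulam and 14.1 with both drugs, and was low in both libraries with palbociclib, as POLR1D was. DIMT1, a methyltransferase of the small subunit RNA, had 52.8 CPM untreated, 40.8 with palbociclib, 37.1 with indisulam and 26.3 with both drugs. Other genes overlap up to 27.3% of the exonic bases of POLR1H, 22.3% of DIMT1 and 35.9% of WDR55, and none of RRP8 or WDR18.

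Levels between genes were compared as CPM per kilobase of exonic sequence. The length joined the exons of all annotated transcripts of a gene, such as 19694 bases for POLR1A and 8311 for NPM1. It can exceed the transcript present by amounts that differ between genes, so the order of genes is approximate. NPM1 was the most abundant at a mean of 120 CPM per kilobase over the 4 libraries, followed by NCL at 64.7, MYC at 51.9, NOB1 at 51.4 and FBL at 47.2. The lowest were POLR1A at 4.46, RRP12 at 4.19 and PPAN at 1.05 CPM per kilobase. The order of the leading genes differed between treatments. Untreated, FBL came second to NPM1 with 66.9 CPM per kilobase and NCL had 53.4, and in the combination NCL was second with 71.9 and FBL had 29.5. MYC and NOB1 were at 39.2 and 37.6 in the combination.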

How the data were processed

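Gene counts of 4 stranded poly(A) RNA libraries of SUM159 cells were analysed, 1 per condition. The authors deposited raw counts per gene. The submitters' processing notes name TopHat2 2.1, HTSeq and GRCh38. Annotation release and strand setting are not given in the sources used here. Reads aligned to more than 1 place (6.46% to 6.84%) or to more than 1 gene (2.41% to 2.63%) were tallied apart and are in no gene's count. The study scaled depth by a relative total, so counts were divided by total gene counts, with a pseudocount of 1 scaled count for log2 ratios, and genes with a mean of at least 1 CPM were kept. Ratios carry 95% Poisson intervals, which cover counting error only, as reads had no molecular identifiers. A count of 3 reads is 0.180 to 0.239 CPM. Groups were taken from the labels.

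The 40 genes and the other lists were chosen with earlier results of these data known. Values are given in full for MYC, for genes called at 2-fold and for the 5 highest and 5 lowest in the combination against untreated, and for other genes where they show how partners differ, chosen after their values were seen. Of 145 other ribosome biogenesis symbols, AFG2A and AFG2B were not matched. Positions and lengths are from GENCODE 44. Python 3.11.15, numpy 2.4.6, pandas 2.3.3, matplotlib 3.10.9 and R 4.3.3 were used. Alternatives were TMM factors (edgeR 4.0.16), median-of-ratios size factors (DESeq2 1.42.0), totals without mitochondrial or ribosomal protein genes, other filters and pseudocounts, and members without exonic overlap. The calculation was tested on simulated data.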

Additional observations from a re-analysis of the deposited data

Results flagged for a closer look

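In 8 of the 40 genes the ratio of a drug lay on one side of 0 alone and on the other side beside the second drug, with both counting intervals off 0. These were 12.5% of the 40 genes for palbociclib, beside 8.04% of all tested genes, and 10.0% for indisulam, beside 6.31%. Without regard to intervals, 14 of the 40 lay on opposite sides for palbociclib and 10 for indisulam, beside 32.3% and 26.0% of all tested genes. These counts are near the background share. With 1 library per condition none of these differences was tested, and the values are log2 ratios with the second drug minus those without it.

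For palbociclib, MYC was at 0.09 alone and -0.32 beside indisulam, a difference of -0.40. NOLC1 went from 0.53 to -0.25, a difference of -0.78, and NOP16 from 0.61 to -0.24, a difference of -0.84. BRIX1 went from 0.44 to -0.23, a difference of -0.68. DDX21 went from 0.13 to -0.12, a difference of -0.25.

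For indisulam, NOP16 was at 0.62 alone and -0.22 beside palbociclib, a difference of -0.84, which is the same quantity as for palbociclib. WDR12 went from 0.26 to -0.30, a difference of -0.56, and BOP1 from 0.17 to -0.34, a difference of -0.51. NPM1 went from -0.10 to 0.07, a difference of 0.17, although the second value was -0.0047 with TMM scaling.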

How the results depend on the processing

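No paired analysis was possible because each condition had 1 library. Of 232 recomputed list medians and counts, 4 changed sign, all of them with TMM or median-of-ratios factors. The median of the ribosomal protein genes for indisulam against untreated, 0.05, became -0.0025 with TMM factors and -0.0078 with median-of-ratios size factors, and the median of the 40 genes for the combination against palbociclib, 0.05, became -0.02 and -0.0096. With either set of factors the median of the ribosomal protein genes was -0.41 in the combination against untreated, and in the combination against palbociclib it was -0.36 and -0.35. Without genes that share exonic sequence, which left 14 of the 40, the members' median was 0.49 for indisulam against untreated and 0.26 for the combination against palbociclib. The cause of these shifts was not tested. The median of the 40 genes in the combination against untreated ranged from 0.34 to 0.45, the difference from the ribosomal protein genes from 0.75 to 0.77, and the number called at 1.5-fold from 13 to 14. The median departure from additivity ranged from -0.27 to -0.25 except without genes that share exonic sequence, where it was -0.11. Of 200 values for the named genes, 3 changed sign, all in the combination against palbociclib, namely NPM1 at -0.0047 with TMM factors and NOP56, from 0.0049 to -0.07 and -0.06. Depth limits PPAN most, with 31 to 63 reads.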

Other observations

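Partners and antagonists of MYC differed by drug. MAX, the partner with which MYC binds DNA, had 46.0 CPM untreated, 61.6 with palbociclib, 54.9 with indisulam and 71.9 with both drugs. MXD1, an antagonist that competes for MAX, had 10.0, 11.5, 24.4 and 24.8 CPM in the same order, so that the libraries with indisulam were the high ones, with a log2 ratio of combination to untreated of 1.30 (1.01 to 1.59). MXD3, another antagonist, had 10.1, 3.94, 12.5 and 5.08 CPM and was low in both libraries with palbociclib. Other genes overlap up to 43.7% of the exonic bases of MXD3 and 26.0% of those of MAX. MXD4 had 252, 454, 152 and 169 CPM. The log2 ratio of indisulam beside palbociclib was -1.42 (-1.49 to -1.36), larger in size than that of MYC. MNT and MXI1 were at -0.33 and -0.04 in the combination against untreated. The paralogs MYCN and MYCL had at most 28 and 13 reads in a library and did not pass the filter.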
